A study of Mus musculus with 28 samples.

Results

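The 6 genes described here, Ms4a4a, Ms4a4c, Ms4a6b, Ms4a6c, Ms4a6d and Ms4a7, belong to the Ms4a family and were read in peritoneal macrophages of mice. They were chosen by name from the 19 Ms4a genes that have a probe set with a single gene symbol on the array, leaving out the B cell gene Ms4a1, and the choice was made with earlier results of these arrays known. Each of the 6 had 1 such probe set, so no choice between probe sets was needed. All 6 lay above the background floor of 6.32 (log2 signal) on all 28 arrays and were tested with 13512 genes in all. Because the members were picked with results in view, the adjusted p-values below show where each gene stands in the test over all genes and are not independent evidence for the family. A gene is called higher or lower where its adjusted p from limma, over all 13512 genes of a comparison, is under 0.05.

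The arrays came from 7 groups of 4, which the authors describe as independent experiments. ATF7 knockout mice (KO) and wild-type mice (WT), both on a C57BL/6 background, received no injection. The other 5 groups were wild-type C57BL/6 mice injected intravenously with LPS, PGN, imiquimod (IMQ), β-glucan (BG) or PBS, labelled as 3 weeks after injection. The protocol gives 7 to 8 weeks of age at injection, an interval of 3 to 4 weeks and 10 to 12 weeks of age at sampling for injected mice. The labels state neither the age of the uninjected mice nor which part of Atf7 the knockout lacks. Cells were washed from the peritoneal cavity without thioglycollate, kept overnight in serum-free medium and freed of loose cells by washing, so that every group had also spent a night in culture. Signals are the authors' RMA values, given here on the log2 scale as mean ± SD with n = 4 arrays per group.

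Ms4a proteins span the cell membrane several times and sit beside receptors whose signals they modify. The best known are CD20 of B cells, encoded by Ms4a1, and the β chain of the high-affinity IgE receptor of mast cells, encoded by Ms4a2. Several members are genes of macrophages: Ms4a4a associates with dectin-1, the β-glucan receptor encoded by Clec7a, Ms4a6d has been described in mice as a partner of the complement receptor Vsig4 that restrains the NLRP3 inflammasome, and Ms4a7 marks macrophages of brain borders and monocyte-derived macrophages. Ms4a6b is known from mouse T cells, where it associates with the receptor GITR.

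Several facts of the arrays bear on all results. Atf7 read 7.08 ± 0.10 in KO and 9.97 ± 0.11 in WT with probe set 10433032, and 10.28 ± 0.04 in KO and 10.73 ± 0.08 in WT with probe set 10433034, so both went the way of the labels. All 10 macrophage markers were above the floor on all arrays, with a mean of 11.43 to 11.61 by group. The 8 tested B cell markers had a mean of 7.45 to 8.14 on KO arrays, against 8.28 to 9.08 on WT arrays, and 8.15 to 8.35 on BG arrays, against 8.46 to 8.93 on PBS arrays. The 8 measured markers of large peritoneal macrophages, the resident cells of the cavity, averaged 10.24 ± 0.12 in KO and 10.84 ± 0.14 in WT, and 10.07 ± 0.10 in BG and 10.69 ± 0.20 in PBS. In the knockout 5 of these were called lower (10.7% of all genes were) and none higher (17.7%). Timd4 was higher there by 0.67 without being called. After BG 6 were called lower (21.4%) and none higher (20.2%). Tested markers of monocyte-derived macrophages and dendritic cells (9) averaged 8.08 to 8.27 on KO arrays and 8.38 to 8.50 on WT arrays. In the knockout 1 of them was called higher (17.7% of all genes were) and 4 lower (10.7%). Their mean was 8.32 to 8.44 on BG arrays and 8.44 to 8.59 on PBS arrays, with 3 called higher (20.2%) and 2 lower (21.4%). The part of these markers in the results below was not tested, except that the B cell mean was tried as a covariate. Of the markers on the array, 6 of 9 for T and NK cells, 4 of 7 for mast cells, 4 of 9 for neutrophils and 3 of 5 for eosinophils were under the floor on every array. The PGN and IMQ arrays stood apart together: 1 probe set with no gene symbol, singled out after its values were seen, read 1790 to 2080 in linear signal on those 8 arrays and 2510 to 3103 on the other 20. The labels give no dates for the arrays, so batch and group cannot be told apart. In RNA from a whole dish, fewer cells of a type and less RNA per cell cannot be told apart either.

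Ms4a4a, the dectin-1 partner, fell in the knockout and after each of the 4 ligands, most after β-glucan. Its log2 signal was 6.88, 7.36, 7.16 and 6.82 on the KO arrays, against 8.39, 7.49, 8.44 and 7.80 on the WT arrays. All 4 KO arrays lay below all 4 WT arrays, with WT replicate 2 the nearest to them. The mean of 7.05 ± 0.25 in KO against 8.03 ± 0.46 in WT is a 1.97-fold fall (log2 difference -0.98 ± 0.18 SE, limma adjusted p = 0.000183). The exact permutation test gave p = 0.0286, the lowest that 4 against 4 arrays allow. This placed it at rank 63 from the lowest log2 difference among 13512 genes.

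In injected mice Ms4a4a read 7.43, 7.09, 7.61 and 7.51 on the LPS arrays, 7.34, 7.30, 7.26 and 7.12 on the PGN arrays, 6.73, 7.36, 7.64 and 7.28 on the IMQ arrays and 6.94, 6.55, 6.85 and 6.61 on the BG arrays, against 8.51, 7.91, 8.14 and 8.13 on the PBS arrays. Every ligand array was below every PBS array, in each group with an exact permutation p of 0.0286. Such a fall without overlap was seen for 8.96% of all genes after LPS, 4.84% after PGN, 6.21% after IMQ and 19.8% after BG, and for 8.51% in KO against WT. The log2 difference from PBS was -0.77 after LPS (1.7-fold, limma adjusted p = 0.018), -0.92 after PGN (1.89-fold, adjusted p = 0.00434), -0.93 after IMQ (1.9-fold, adjusted p = 0.00267) and -1.44 after BG (2.71-fold, adjusted p = 6.97e-07), each with an SE of 0.18. By size of fall it stood at rank 9 after LPS, 3 after PGN, 5 after IMQ and 4 after BG among 13512 genes. Among them 30 genes, or 0.222%, were called lower after all 4 ligands, and the 4 comparisons share their PBS arrays. With the LPS and PBS arrays alone, without the PGN and IMQ arrays that stand apart, in the fit, Ms4a4a was again called lower after LPS (limma adjusted p = 0.0318), and with the BG and PBS arrays alone it was called lower after BG (2.02e-05). Leaving out LPS replicate 2 ended the LPS call (log2 difference -0.66, adjusted p = 0.093), whereas the KO, PGN, IMQ and BG calls held whichever array was left out. The KO call was lost with the B cell marker mean as a covariate (-0.66, adjusted p = 0.205). The BG arrays, at 6.55 to 6.94, and the KO arrays, at 6.82 to 7.36, lie close to the floor of 6.32.

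The PBS arrays of Ms4a4a did not differ from uninjected WT beyond the spread (8.18 ± 0.25 in PBS and 8.03 ± 0.46 in WT, log2 difference 0.14, limma adjusted p = 0.556). Set against uninjected WT in place of PBS, a choice made after seeing the data, the gene was again lower after LPS (-0.62, adjusted p = 0.0285), PGN (-0.78, 0.00214), IMQ (-0.78, 0.00212) and BG (-1.30, 2.83e-06), and 94 genes (0.696%) were called lower in all 4 of those comparisons. Against WT, 2.78% of all genes were called lower after LPS, 9.14% after PGN, 11% after IMQ and 16.2% after BG, and 6.39%, 20.9%, 22% and 21.9% higher in the same order. From high to low the group means ran PBS, WT, LPS, PGN, IMQ, KO and BG. Of neighbours in that order, WT and LPS differed by 0.62 and KO and BG by 0.32, more than the larger SD of each pair but with arrays that overlap, and the other neighbours lay within their SD. Directly compared, BG minus LPS was -0.67 (6.74 ± 0.19 in BG and 7.41 ± 0.23 in LPS, limma adjusted p = 0.00486), BG minus PGN was -0.52 (adjusted p = 0.0293) and BG minus IMQ was -0.51 (adjusted p = 0.028). The knockout effect (KO minus WT) differed from the LPS effect by -0.21 (95% interval -0.74 to 0.32, adjusted p = 0.536) and from the BG effect by 0.46 (-0.07 to 0.99, adjusted p = 0.177), so neither difference passed.

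**Figure D1:**
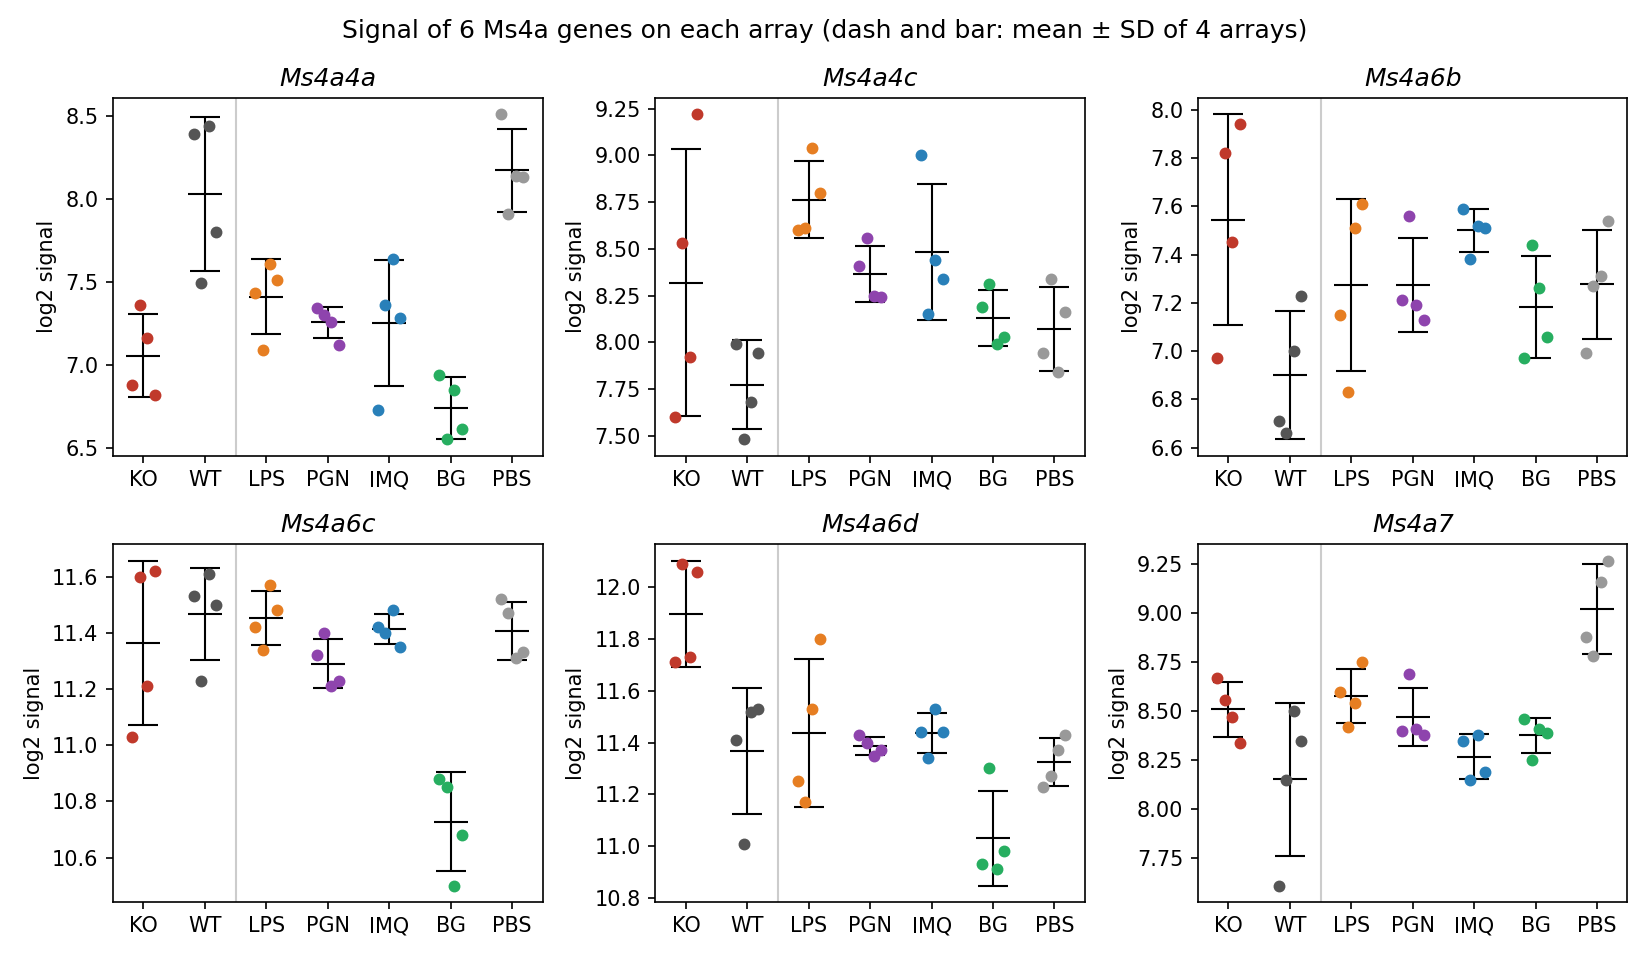
Log2 signal (y axis) of each of the 6 Ms4a genes on every array, with the groups on the x axis and the mean ± SD of 4 arrays as a dash and bar; the y axis range differs between panels. The Ms4a4a points of all 4 ligands lie below all PBS points, the Ms4a6c points of BG lie below those of every other group, and the Ms4a7 points of PBS lie above those of every other group.

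Ms4a4a and Ms4a7 lie next to each other in the RefSeq gene order of chromosome 19, and both were lower than in PBS after all 4 ligands. Against uninjected WT Ms4a4a was lower after all 4, but Ms4a7 was higher in the mean (log2 difference 0.11 to 0.42). The 250 bases upstream of each annotated start are shown (RefSeq, GRCm38.p6, 5′ to 3′ on the gene's strand). Capitals mark the letters GGAAGT, the core of an ETS factor site, and GAAANNGAA, a shortened interferon-stimulated response element, on either strand. The Ms4a4a window is chr19:11375238-11375487 on the plus strand and the Ms4a7 window is chr19:11336147-11336396 on the minus strand, 1 of its 2 annotated starts.
Ms4a4a: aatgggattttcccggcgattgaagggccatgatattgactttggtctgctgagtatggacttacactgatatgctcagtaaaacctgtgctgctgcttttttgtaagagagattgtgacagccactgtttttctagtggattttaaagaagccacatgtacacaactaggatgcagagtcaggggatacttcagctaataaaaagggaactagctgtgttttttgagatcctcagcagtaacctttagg
Ms4a7: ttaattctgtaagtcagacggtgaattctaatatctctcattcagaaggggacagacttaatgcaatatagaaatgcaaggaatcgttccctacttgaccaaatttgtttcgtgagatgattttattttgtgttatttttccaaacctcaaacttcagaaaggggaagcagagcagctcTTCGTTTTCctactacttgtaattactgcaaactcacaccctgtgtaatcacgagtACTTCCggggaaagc
No match was found in the Ms4a4a window. The Ms4a7 window holds GAAANNGAA on the opposite strand, 71 to 63 bases upstream of the start, and GGAAGT on the opposite strand, 15 to 10 bases upstream. Among 32851 mouse promoter windows of this length, 7.13% hold GAAANNGAA and 19.7% hold GGAAGT. Neither window shown holds TGACGTCA, the full CRE to which ATF/CREB factors such as ATF7 bind and which 1.55% of windows hold, nor TGANTCA, the AP-1 letters of 6.75% of windows, nor the longer form of the interferon element, GAAANNGAA followed by A, of 2.98%. The window of the other annotated Ms4a7 start, not shown, holds GAAANNGAA 148 to 140 bases upstream and TGANTCA 81 to 75 bases upstream.

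Unlike Ms4a4a, Ms4a7 was itself high in the PBS group, and it also differed in the knockout and against uninjected WT, as given below. It read 8.88, 8.78, 9.16 and 9.27 on the PBS arrays, against 7.61, 8.15, 8.50 and 8.35 on the WT arrays. All PBS arrays were above all arrays of every other group, and 14.1% of all genes had PBS above WT without overlap. PBS exceeded WT by 0.87 on the log2 scale (9.02 ± 0.23 in PBS and 8.15 ± 0.39 in WT, 1.83-fold, limma adjusted p = 3.98e-05), rank 11 from the highest among 13512 genes. It was the 1 member of 6 called higher in PBS against WT, where 19.7% of all genes were called higher, and limma called none lower, where 12.9% were (none was lower at an unadjusted p under 0.05).

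After the ligands Ms4a7 read 8.60, 8.42, 8.54 and 8.75 on the LPS arrays, 8.40, 8.69, 8.41 and 8.38 on the PGN arrays, 8.35, 8.15, 8.38 and 8.19 on the IMQ arrays and 8.46, 8.25, 8.41 and 8.39 on the BG arrays. These arrays all lay below the PBS arrays, as for 8.96% of all genes after LPS, 4.84% after PGN, 6.21% after IMQ and 19.8% after BG. The log2 difference from PBS was -0.45 after LPS (1.36-fold, limma adjusted p = 0.0334), -0.55 after PGN (1.47-fold, 0.014), -0.76 after IMQ (1.69-fold, 0.000771) and -0.64 after BG (1.56-fold, 0.000279). With only the arrays of the comparison in the fit, the adjusted p for Ms4a7 was 0.0488 after LPS and 0.000538 after BG. Against uninjected WT the sign turned in all 4: the log2 difference was 0.42 after LPS (adjusted p = 0.0374), 0.32 after PGN (0.0634), 0.11 after IMQ (0.512) and 0.23 after BG (0.175). The call against PBS was lost after LPS without PBS replicate 3 or 4 or LPS replicate 1 or 2 (log2 difference -0.46 to -0.37, adjusted p from 0.0597 to 0.135), and after PGN without PBS replicate 3 or 4 or PGN replicate 4 (-0.52 to -0.47, adjusted p from 0.0506 to 0.0605). A second quantile normalisation also ended the LPS call (-0.40, adjusted p = 0.0501).

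In the knockout Ms4a7 read 8.67, 8.56, 8.47 and 8.34, against 7.61, 8.15, 8.50 and 8.35 in WT. The groups overlap, and WT replicate 1 is the low one. The mean was 8.51 ± 0.14 in KO and 8.15 ± 0.39 in WT, a difference of 0.36 (1.28-fold, limma adjusted p = 0.039, exact permutation p = 0.1429). Without WT replicate 1 the difference was 0.18 (adjusted p = 0.264), and 5 of the 8 fits that left out 1 array lost the call, those without WT replicates 1 and 2 and KO replicates 1, 2 and 3. The call was also lost with the KO and WT arrays alone in the fit (adjusted p = 0.134). The knockout effect on Ms4a7 differed from the LPS effect by 0.81 (adjusted p = 0.00237) and from the BG effect with a 95% interval of 0.63 to 1.38 (adjusted p = 0.000201), comparisons in which the high PBS arrays enter with the ligand.

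The Ms4a6 genes and Ms4a4c differed from this pair. Ms4a6d, the reported Vsig4 partner, rose in the knockout: it read 11.71, 12.09, 11.73 and 12.06 on the KO arrays, against 11.41, 11.01, 11.52 and 11.53 on the WT arrays. The lowest KO array was above the highest WT array, as for 13.4% of all genes. The mean was 11.90 ± 0.21 in KO and 11.37 ± 0.25 in WT (log2 difference 0.53, 1.45-fold, limma adjusted p = 0.000945), and the call held in all 8 fits that left out 1 array. After BG the gene read 10.93, 11.30, 10.91 and 10.98, against 11.23, 11.27, 11.37 and 11.43 after PBS. BG replicate 2 lies among the PBS arrays and the other 3 below them. The difference of -0.29 (11.03 ± 0.18 in BG and 11.33 ± 0.09 in PBS, 1.23-fold) passed narrowly (limma adjusted p = 0.0427) and was lost without any 1 of PBS replicates 2, 3 and 4 or BG replicates 1, 3 and 4 (-0.31 to -0.25, adjusted p from 0.0543 to 0.115), as well as after a second quantile normalisation (-0.26, 0.0566). The knockout and BG effects on Ms4a6d differed by 0.82 (95% interval 0.49 to 1.16, limma adjusted p = 0.000472). LPS, PGN and IMQ left it within 0.11 of PBS (adjusted p from 0.496 to 0.82), so KO had the highest mean of the 7 groups, 0.46 above LPS, and BG the lowest, 0.29 below PBS.

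Ms4a6c was lowest after β-glucan. It read 10.88, 10.85, 10.50 and 10.68 on the BG arrays, against 11.52, 11.47, 11.31 and 11.33 on the PBS arrays. The highest BG array was below the lowest array of each of the other 6 groups. Against PBS alone, 19.8% of all genes fell after BG without overlap, and the share for all 6 groups at once was not counted. The mean was 10.73 ± 0.18 in BG and 11.41 ± 0.10 in PBS, a 1.6-fold fall (log2 difference -0.68, limma adjusted p = 6.49e-06). BG was also below LPS (-0.73, adjusted p = 3.09e-06), PGN (-0.56, 9.87e-05), IMQ (-0.68, 6.4e-06) and WT (-0.74, 1.76e-06). On the KO arrays it read 11.03, 11.60, 11.21 and 11.62, against 11.53, 11.23, 11.61 and 11.50 on the WT arrays, groups that overlap throughout (log2 difference -0.11, 95% interval -0.31 to 0.10, adjusted p = 0.486). The difference between the knockout and BG effects was 0.57 (adjusted p = 0.00369). LPS, PGN and IMQ lay within 0.12 of PBS (adjusted p from 0.576 to 0.982).

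Ms4a6b rose in the knockout and was not called after any ligand against PBS. It read 6.97, 7.82, 7.45 and 7.94 on the KO arrays, against 6.71, 6.66, 7.00 and 7.23 on the WT arrays. KO replicate 1 lies within the WT range and the other 3 above it. The mean was 7.54 ± 0.44 in KO and 6.90 ± 0.27 in WT (log2 difference 0.64, 1.56-fold, limma adjusted p = 0.00617, exact permutation p = 0.0857), and the call held in all 8 fits that left out 1 array. After LPS, PGN, IMQ and BG the group means were 7.28, 7.27, 7.50 and 7.18, against 7.28 after PBS, with adjusted p from 0.507 to 0.996. Against uninjected WT it was called higher after IMQ, without overlap (7.50 in IMQ and 6.90 in WT, log2 difference 0.60, limma adjusted p = 0.011), and not after LPS (0.37, 0.192), PGN (0.37, 0.107) or BG (0.28, 0.215). Without overlap, 19.2% of all genes were higher in IMQ than in WT. Ms4a6b and Ms4a6c are related copies on the same strand, and the regions upstream of their starts are shown because 149 of 175 aligned bases (85.1%) are identical, with 48 bases shared without a break. Other pairs of the regions shown here reach 58.5% to 64.7%. The Ms4a6b window is chr19:11518309-11518558 and the Ms4a6c window chr19:11469118-11469367, both on the plus strand (RefSeq, GRCm38.p6), with the same letters in capitals as above.
Ms4a6b: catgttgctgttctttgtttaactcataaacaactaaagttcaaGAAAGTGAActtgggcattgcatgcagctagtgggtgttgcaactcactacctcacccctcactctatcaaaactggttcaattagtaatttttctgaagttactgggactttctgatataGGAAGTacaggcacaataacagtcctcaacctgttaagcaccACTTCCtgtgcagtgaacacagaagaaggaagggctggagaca
Ms4a6c: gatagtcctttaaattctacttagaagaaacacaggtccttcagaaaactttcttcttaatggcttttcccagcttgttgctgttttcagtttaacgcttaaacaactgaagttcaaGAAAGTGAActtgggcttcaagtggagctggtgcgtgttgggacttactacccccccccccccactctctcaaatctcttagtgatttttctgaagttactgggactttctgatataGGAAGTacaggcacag
Both hold GAAAGTGAA, a match to GAAANNGAA, 206 to 198 bases upstream of Ms4a6b and 133 to 125 bases upstream of Ms4a6c. Both hold GGAAGT, 85 to 80 bases upstream of Ms4a6b and 16 to 11 bases upstream of Ms4a6c, and Ms4a6b has a second on the opposite strand, 43 to 38 bases upstream. The pair nevertheless moved in different comparisons, Ms4a6b in the knockout and Ms4a6c after BG. Pearson's r between the 2 genes was 0.27 over the 28 arrays and 0.56 with group means removed. Whether a probe set of 1 copy also binds transcripts of another was not tested.

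Ms4a4c was the member called higher after a ligand. It read 8.60, 8.61, 9.04 and 8.80 on the LPS arrays, against 7.94, 8.34, 7.84 and 8.16 on the PBS arrays. All LPS arrays were above all PBS arrays, as for 8.89% of all genes. The mean was 8.76 ± 0.21 in LPS and 8.07 ± 0.23 in PBS (log2 difference 0.69, 1.62-fold, limma adjusted p = 0.0439, exact permutation p = 0.0286), a call that held without PBS replicate 2 (adjusted p = 0.046) and was lost in the other 7 fits that left out 1 array (log2 difference as low as 0.60, adjusted p up to 0.117). Against uninjected WT the gene was higher after LPS by 0.99 (adjusted p = 0.0044), after PGN by 0.59 (0.04) and after IMQ by 0.71 (0.0148). On the BG arrays it read 8.19, 8.31, 7.99 and 8.03, all below the LPS arrays, as for 15.7% of all genes. The log2 difference BG minus LPS was -0.63 (limma adjusted p = 0.0246), lost without LPS replicate 3 or BG replicate 3 or 4 (adjusted p up to 0.0802). In the mean the gene was 0.06 above PBS after BG (adjusted p = 0.839). In the knockout it read 7.60, 8.53, 7.92 and 9.22, against 7.99, 7.48, 7.68 and 7.94 in WT, the widest spread of any member in any group (8.32 ± 0.71 in KO and 7.77 ± 0.24 in WT), and the difference of 0.54 missed the threshold (95% interval 0.10 to 0.99, adjusted p = 0.062) but passed without KO replicate 1 (0.78, 0.00576) or KO replicate 3 (0.68, 0.0284), and with arrays centred on their median (0.60, 0.0356). Its upstream region, chr19:11407411-11407660 on the plus strand, is shown for comparison with those of Ms4a6b and Ms4a6c, and GAAANNGAA is not among its letters.
Ms4a4c: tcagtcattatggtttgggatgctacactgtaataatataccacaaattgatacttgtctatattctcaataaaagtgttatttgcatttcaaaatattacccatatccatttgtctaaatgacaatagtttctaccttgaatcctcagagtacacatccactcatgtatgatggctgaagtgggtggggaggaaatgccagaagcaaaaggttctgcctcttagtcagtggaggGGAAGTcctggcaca
The capitals mark GGAAGT, 15 to 10 bases upstream of the start.

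Counted over the family, the knockout called 3 of 6 members higher (17.7% of all genes were) and 1 lower (10.7% of all genes), and 2 were not called. LPS called 1 higher (4.36% of all genes) and 2 lower (5.52%). PGN called 2 lower (1.81% of all genes) and none higher (2.09%), and IMQ 2 lower (2.6%) and none higher (3.09%). BG called 4 lower (21.4% of all genes) and none higher (20.2%). Where limma called no member higher, after PGN, IMQ and BG, none was higher at an unadjusted p under 0.05 either. The median log2 difference of the 6 was 0.44 in the knockout, where that of all genes was 0.005, and -0.47 after BG, where it was 0.019. It was 0.02 after LPS, -0.06 after PGN and 0.06 after IMQ, since falls of Ms4a4a and Ms4a7 stood beside small or positive differences of the others. Between BG and LPS 4 members were called, all lower in BG (16.7% of all genes were). The 4 members Ms4a6b, Ms4a6c, Ms4a6d and Ms4a7 had a knockout effect above their BG effect (18% of all genes did) and 2, Ms4a6b and Ms4a7, above their LPS effect (18.8%). For Ms4a6b these differences were 0.74 (limma adjusted p = 0.0255) and 0.64 (0.0496), and they were lost in 7 and 10 of the 16 fits that left out 1 array (adjusted p up to 0.0625 and 0.132). The difference from the LPS effect was also lost with only those 4 groups in the fit (adjusted p = 0.104).

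**Figure D2:**
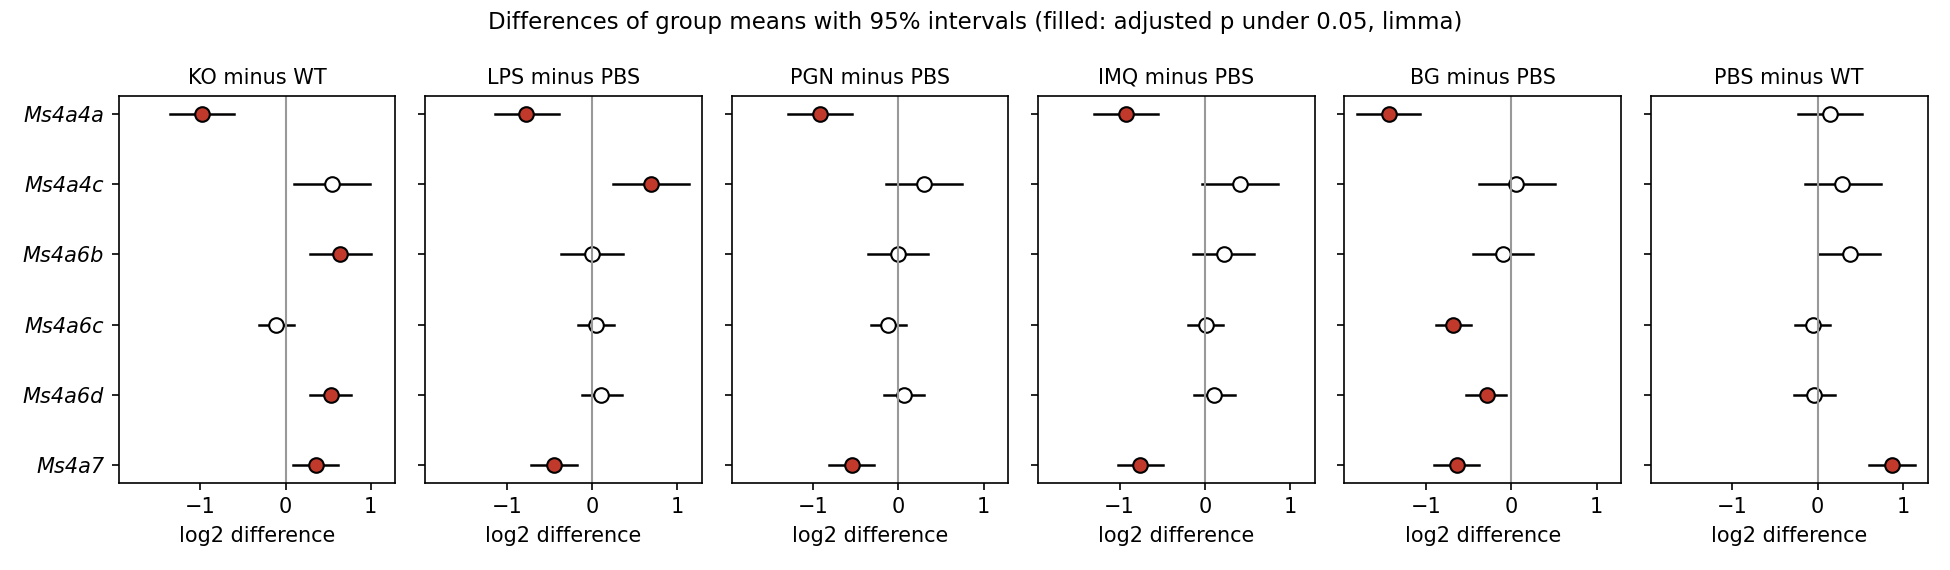
Log2 difference between group means (x axis) for each member (y axis) in 6 comparisons, with 95% intervals from limma; filled points passed an adjusted p of 0.05 over all genes. Ms4a4a is to the left of 0 in the knockout and after all 4 ligands, while Ms4a7 is to the left after the ligands and to the right for PBS minus WT.

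The members also differed in how they moved with interferon-response genes, a list of 22 measured genes such as Oas1a, Bst2 and Ifit3 that interferons induce. By limma all 22 were called higher in the knockout (17.7% of all genes were), 21 after LPS (4.36%) and 16 after BG (20.2%). None was called higher after PGN (2.09% of all genes were) or IMQ (3.09%), where 7 and 9 were higher at an unadjusted p under 0.05. The mean of the list was 9.72 ± 0.42 in KO and 8.59 ± 0.23 in WT. Across the 28 arrays, which share groups and processing, Pearson's r with the list mean was 0.66 for Ms4a4c, 0.56 for Ms4a6b, 0.47 for Ms4a6d, 0.01 for Ms4a6c, -0.04 for Ms4a7 and -0.65 for Ms4a4a. With group means removed it was 0.79 for Ms4a4c, 0.53 for Ms4a6b, 0.27 for Ms4a6d, 0.53 for Ms4a6c, -0.03 for Ms4a7 and -0.41 for Ms4a4a. On the KO arrays the list mean was 9.30, 9.75, 9.54 and 10.29 for replicates 1 to 4. Replicates 2 and 4, with the higher list means, were also the higher ones for Ms4a4c, Ms4a6b, Ms4a6c and Ms4a6d. The B cell marker mean on the same arrays was 7.45, 7.83, 7.55 and 8.14, in the same order. With group means removed, r with the B cell marker mean was 0.59 for Ms4a4c, 0.22 for Ms4a6b, 0.36 for Ms4a6d, 0.59 for Ms4a6c, -0.39 for Ms4a7 and 0.24 for Ms4a4a, above that with the interferon list for Ms4a6c and Ms4a6d. Over the 28 arrays without that step it was 0.20 for Ms4a4c, -0.11 for Ms4a6b, -0.26 for Ms4a6d, 0.38 for Ms4a6c, -0.20 for Ms4a7 and 0.41 for Ms4a4a.

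**Figure D3:**
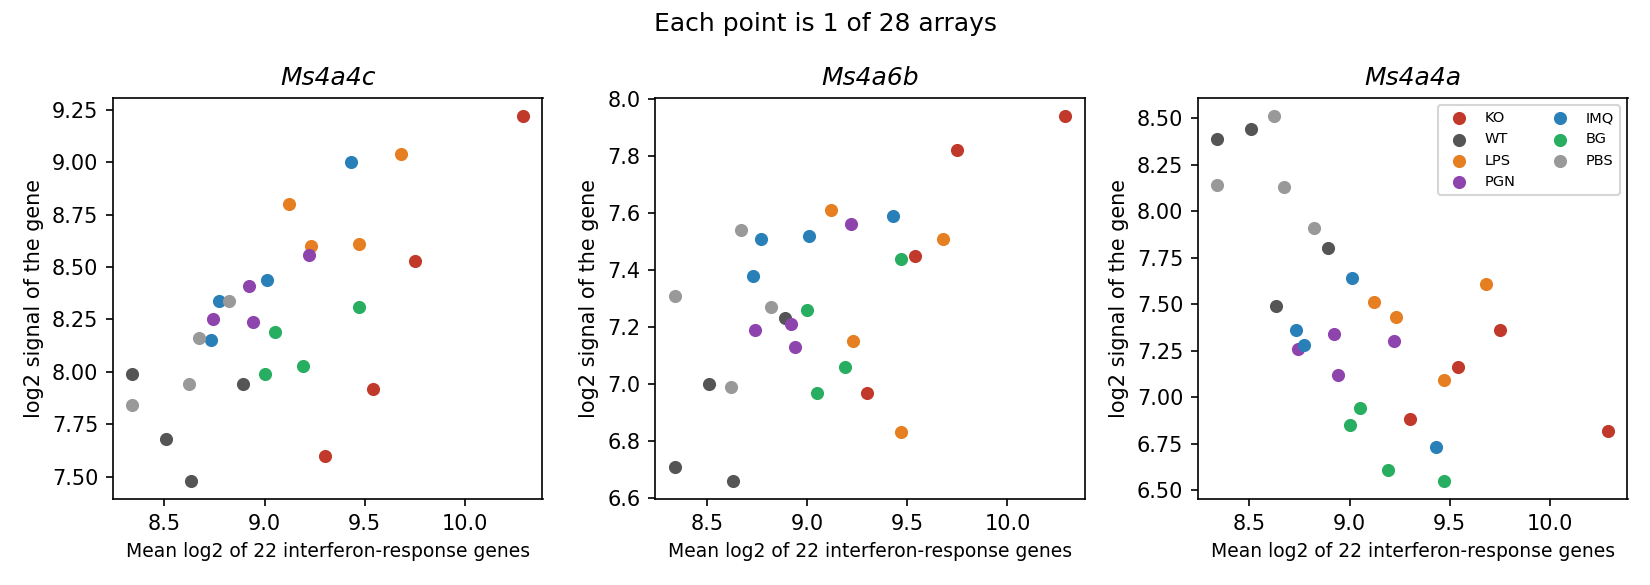
Log2 signal of Ms4a4c, Ms4a6b and Ms4a4a (y axes) against the mean log2 signal of 22 interferon-response genes (x axis), 1 point per array and a colour per group. Ms4a4c and Ms4a6b run upward with the list and Ms4a4a runs downward; the KO array with a list mean of 10.29 is the point farthest to the right.

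Among themselves, the members fell into those that varied together within groups and those that did not. With group means removed, r was 0.80 for Ms4a6b with Ms4a6d, 0.74 for Ms4a4c with Ms4a6c, 0.68 for Ms4a4c with Ms4a6b and 0.64 for Ms4a6c with Ms4a6d. Ms4a7 had values of -0.19 to 0.30 with the other 5, and Ms4a4a values of -0.11 to 0.39. Genes most like each member over the 28 arrays, by Pearson's r and as a description, differed from member to member. For Ms4a4c they were Ifi209 (0.89), Ifi203 (0.89), Slfn9 (0.86), Ifi213 (0.86) and BC023105 (0.82), of which the Ifi genes belong to an interferon-inducible family. For Ms4a6b they were Azi2 (0.81), Siglec1 (0.78), a sialic acid-binding receptor of macrophages, Fcgr1 (0.78), the high-affinity IgG receptor, Aida (0.77) and Mapk9 (0.77). Ms4a4a was most like Zmym5 (0.89), Arl15 (0.87), Gpcpd1 (0.87), Arg2 (0.86), a mitochondrial arginase, and Vcan (0.84), a matrix proteoglycan. Ms4a6c was most like Rnpep (0.91), Cd47 (0.90), the ligand of the macrophage receptor Sirpa, Cnpy3 (0.87), a chaperone of Toll-like receptors, Hif1a (0.87) and Mocs1 (0.87). The genes nearest to Ms4a6d were Mpi (0.89), Bst1 (0.88), Ganab (0.88), Milr1 (0.87) and Babam1 (0.86), and those nearest to Ms4a7 were Vipas39 (0.87), Tmem63b (0.82), Coq8b (0.82), Abhd10 (0.82) and Cptp (0.81). All these values include differences between groups. Once group means were removed, r of the listed genes ran from 0.30 (Cnpy3 with Ms4a6c) to 0.91 (Ifi203 with Ms4a4c). It was 0.41 for Arg2 with Ms4a4a and 0.48 for Cptp with Ms4a7.

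A list of 16 tested genes holds the receptor genes named above, Clec7a, Vsig4 and Tnfrsf18, which encodes GITR, and genes of the signalling and output of dectin-1, Fc receptors and the NLRP3 inflammasome (Syk, Card9, Bcl10, Malt1, Plcg2, Fcer1g, Jak2, Stat3, Tnfaip3, Nlrp3, Pycard, Casp1 and Il1b). In the knockout 7 were called higher (17.7% of all genes were) and 2 lower (10.7%). After BG 3 were called higher (20.2% of all genes) and 4 lower (21.4%), shares near those of all genes. None was called by limma after LPS (1 higher at an unadjusted p under 0.05), 2 were higher after PGN (2.09% of all genes) and 2 after IMQ (3.09%). Clec7a, the dectin-1 gene, averaged 10.23 ± 0.07 in BG and 10.52 ± 0.08 in PBS (log2 difference -0.30, limma adjusted p = 0.00828), and 10.45 ± 0.23 in KO and 10.29 ± 0.16 in WT (0.16, adjusted p = 0.188). It was also called higher in PBS than in WT (0.24, adjusted p = 0.0404), so its BG mean lay near that of WT. Syk, the kinase that dectin-1 engages, was higher by 0.19 after BG than after PBS (adjusted p = 0.00201) and by 0.13 in the knockout (0.0403). Its PBS arrays were in turn lower than WT (-0.12, adjusted p = 0.0498), with means of 10.65 in BG and 10.58 in WT. Vsig4 averaged 9.41 ± 0.38 in KO and 8.72 ± 0.18 in WT (0.69, adjusted p = 0.00102), and 8.30 ± 0.16 in BG and 9.60 ± 0.30 in PBS (-1.30, adjusted p = 1.86e-07). The Vsig4 arrays of KO (8.84 to 9.66) and WT (8.49 to 8.88) overlap. Its calls had the same signs as those of Ms4a6d in these 2 comparisons, although the Ms4a6d call after BG was narrow. Vsig4 was also higher in PBS than in WT by 0.88 (adjusted p = 0.000183), where Ms4a6d differed by -0.04 (adjusted p = 0.807). The calls of Ms4a7 had the signs of Vsig4 in the knockout (0.36, a call easily lost), after BG (-0.64) and in PBS against WT (0.87). Nlrp3, the inflammasome sensor, was lower in the knockout (-0.30, adjusted p = 0.000236) and after BG (-0.33, 5.93e-05) and higher after PGN (0.47, 4.24e-05) and IMQ (0.52, 3.57e-06). Among the other genes of the list with the smallest p, Malt1 and Pycard, an NF-κB signalling protease and an inflammasome adaptor, were higher in the knockout by 0.63 (adjusted p = 1.3e-05) and 0.35 (6.43e-06). Il1b, an inflammatory cytokine gene, had a log2 difference of -1.16 after BG (4.24e-06) and of -0.82 in the knockout (0.000435).

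The other 13 Ms4a genes on the array divided into 4 that were tested and 9 under the floor on every array (Ms4a2, Ms4a3, Ms4a4b, Ms4a4d, Ms4a5, Ms4a12, Ms4a13, Ms4a19 and Ms4a20). Ms4a1, the CD20 gene, averaged 7.33 ± 0.51 in KO and 8.57 ± 0.53 in WT (log2 difference -1.24, limma adjusted p = 5.89e-05), and 7.84 ± 0.18 in BG and 8.59 ± 0.24 in PBS (-0.75, adjusted p = 0.00548). All 8 tested B cell markers, Ms4a1 among them, were called lower in the knockout (10.7% of all genes were), and 3 of 8 after BG (21.4%). With the B cell marker mean as a covariate, which ended the knockout call of Ms4a4a, the difference of Ms4a7 in the knockout turned to -0.01 (0.988), Ms4a6b missed the threshold there (0.92, 0.0536), and Ms4a4c became called higher in the knockout (1.48, 0.00349). After BG Ms4a6d was no longer called (-0.18, 0.278), nor was Ms4a7 for the knockout effect minus the LPS effect (0.46, 0.2). The KO and WT arrays do not overlap in that mean, so the covariate and the genotype cannot be told apart. Ms4a8a read 10.24 ± 0.23 in BG and 10.60 ± 0.08 in PBS (-0.36, adjusted p = 0.00562), and 10.60 in PBS and 10.15 ± 0.27 in WT (0.45, 0.00228). Ms4a10 and Ms4a15, both near the floor, were higher after BG by 0.39 (0.00315) and 0.29 (0.00345), Ms4a15 also after LPS by 0.26 (0.0354), and both were lower in PBS than in WT (-0.35, 0.0112 and -0.47, 8.27e-05). The Ms4a15 mean was thus 7.09 in BG, above 6.80 in PBS and below 7.27 in WT, and that of Ms4a10 6.92 in BG, 6.53 in PBS and 6.88 in WT. Tmem176a and Tmem176b, relatives in the wider family, were not called in the knockout or after any ligand against PBS. Both were called lower in BG than in LPS (-0.37, limma adjusted p = 0.033, and -0.42, 0.00229), where 16.7% of all genes were.

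Along chromosome 19 the 6 members lie close together, in the RefSeq order Ms4a7, Ms4a4a, Ms4a4c, Ms4a4b, Ms4a6c, Gm8369, Ms4a6b, Ms4a4d and Ms4a6d. Neighbouring members did not move alike: in the knockout Ms4a4a had a log2 difference of -0.98 between Ms4a7 at 0.36 and Ms4a4c at 0.54. Of 21 genes around or between the family, 20 were on the array and 11 were tested. In the knockout 3 of these 11 were called higher (17.7% of all genes were), Slc15a3 (0.28, limma adjusted p = 0.00768), a peptide and histidine transporter gene, Tmem109 (0.15, 0.0107) and Ccdc86 (0.44, 0.000775), and after BG Slc15a3 (0.19), Prpf19 (0.21) and Stx3 (0.22) were called higher (20.2% of all genes) and Tmem109 (-0.14) lower (21.4%). After LPS 1 was called higher (4.36%), Olfr1417 (0.30, limma adjusted p = 0.028), an odorant receptor gene of the kind that set the floor. In PBS against WT 1 was called higher (19.7%), Tmem109 (0.24), and 1 lower (12.9%), Prpf19 (-0.23).

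**Figure D4:**
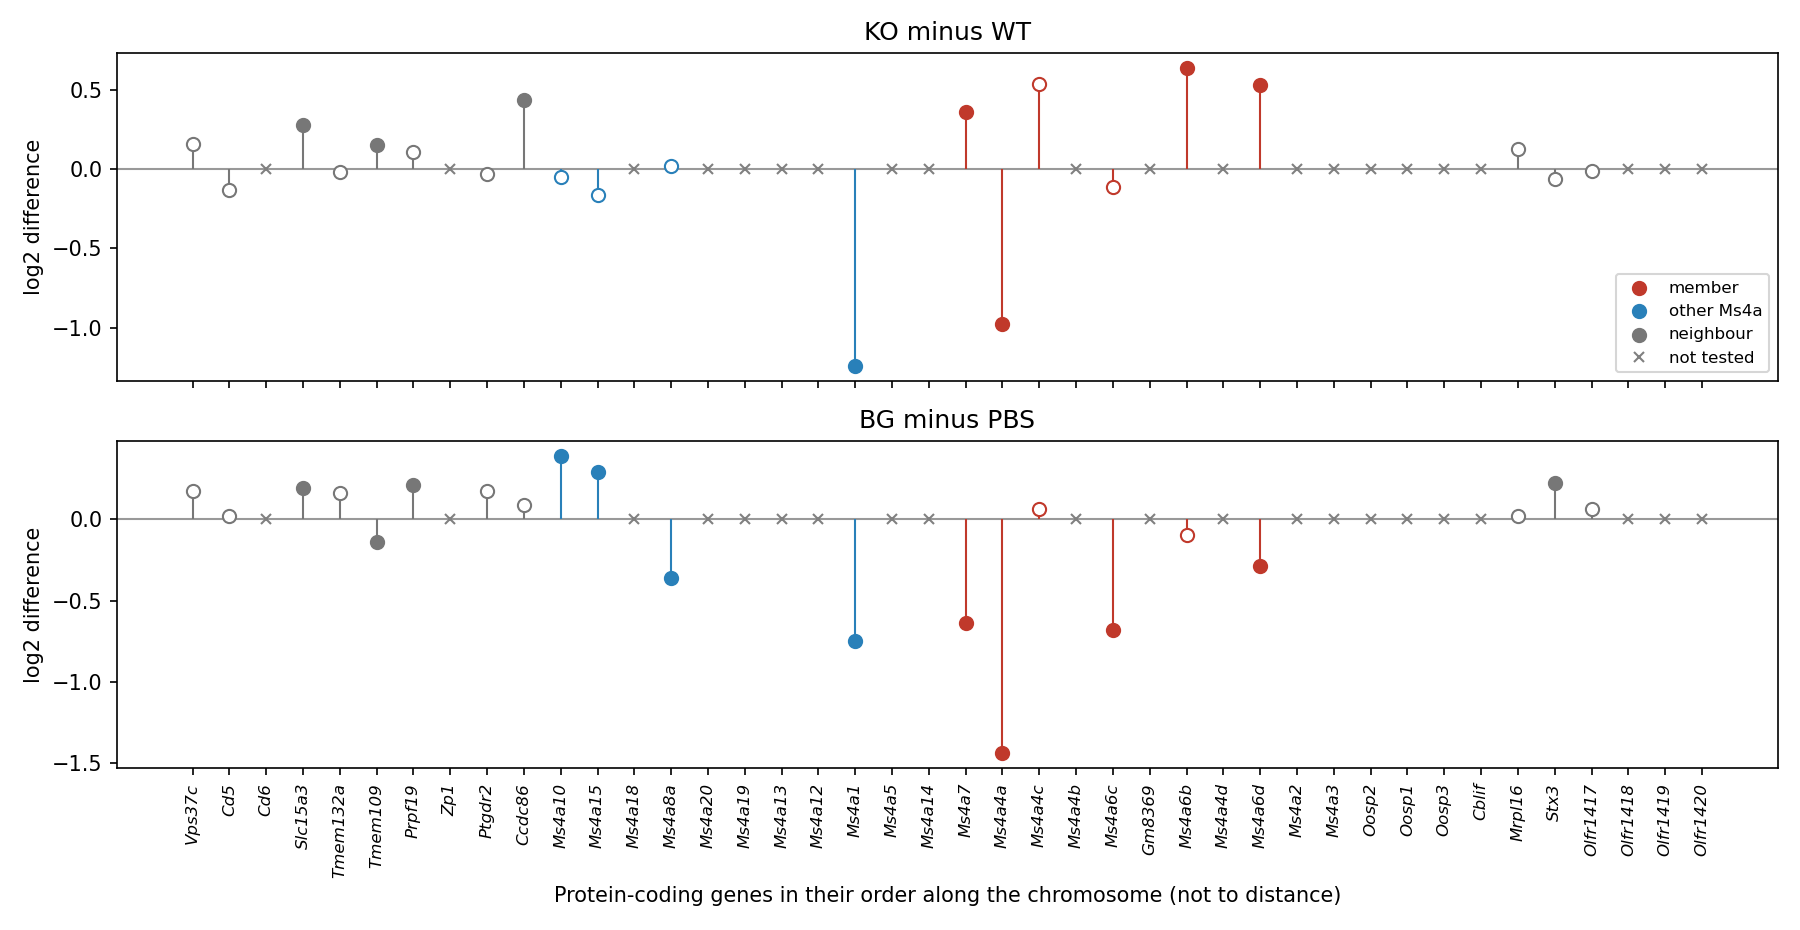
Log2 difference (y axis) of the tested genes around the Ms4a family, in their order along the chromosome (x axis, not drawn to distance), for KO minus WT above and BG minus PBS below. Filled points passed an adjusted p of 0.05, and crosses mark genes under the floor or with no single-symbol probe set. Ms4a4a falls in both panels, to -0.98 and -1.44, between adjacent members with smaller or opposite differences. Ms4a1 falls in both panels as well, to -1.24 for KO minus WT and -0.75 for BG minus PBS.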

How the data were processed

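Peritoneal macrophage RNA was measured on 28 Affymetrix arrays in 7 groups of 4, grouped from the labels, with 100 ng of total RNA amplified per array. The deposited values are linear intensities, 1 for each probe set on each array, which the authors made with Affymetrix Expression Console and RMA, per the submitters' processing notes; the sources used here give neither the software version nor the genome build. RMA equalises array distributions, so overall shifts in RNA cannot be seen. Array signals had medians of 107 to 115; counting depth does not apply, and the number of arrays limits precision.

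Log2 was taken and probe sets with 1 symbol in the platform table were used (21789 of 35556). The floor of 6.32 was the 95th percentile of mean signal over 1210 probe sets of odorant and vomeronasal receptors, and probe sets above it on at least 4 arrays were kept, with the highest-mean probe set per gene, leaving 13512 genes. limma 3.58.1 in R 4.3.3 fitted 1 mean per group to all 28 arrays with an intensity trend. Benjamini-Hochberg adjustment ran over all genes of a comparison, with calls under 0.05. Exact two-sided permutation tests of 4 against 4 arrays were added for each gene named with one. The members and all lists were chosen with earlier results of these data known. The named genes were all members, the other Ms4a and Tmem176 genes, Atf7, up to 3 genes with the smallest adjusted p per list and comparison, the 5 genes most like each member, and called neighbours of the family. Further genes of the lists were also named after their values were seen.

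In simulated BG and PBS groups with independent normal noise (13512 genes, 200 shifted) 94% of genes shifted by 0.5 and 100% of those shifted by 1 (log2) were recovered. There were 11 false calls. The shifted genes were drawn at random from all genes, and recovery for genes as variable as the members was not counted. Upstream sequences came from the RefSeq table of GRCm38.p6, which matched 5 of the 6 members (not Ms4a6d), and were aligned with Biopython 1.88. Plots used matplotlib 3.10.9 (Python 3.11.15). Alternatives covered variance moderation, scaling, the floor, probe set choice, the samples fitted, a B cell covariate, the replicate number as a block and each array left out. Deviations of same-numbered arrays correlated at -0.35 to 0.10 for KO and WT (0 of 4 pairs over 0.1), -0.20 to 0.45 for LPS and PBS (2), 0.05 to 0.26 for PGN and PBS (3), -0.24 to 0.07 for IMQ and PBS (0), -0.02 to 0.17 for BG and PBS (2) and -0.21 to 0.24 for PBS and WT (2). No comparison had all 4 pairs over 0.1, so the numbers were not taken as pairs.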

Additional observations from a re-analysis of the deposited data

Results flagged for a closer look

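Of 42 member and group combinations, 1 had an array set apart from the other 3. Ms4a7 read 8.69 (log2 signal) on PGN replicate 2, against 8.41 on the nearest other PGN array, a gap that takes up 0.898 of the whole range of that group. Chance sets apart about 1 group in 20 under this rule. Without PGN replicate 2 Ms4a7 was still called lower after PGN than after PBS.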

How the results depend on the processing

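Over 54 gene results (6 members in 9 comparisons), all kept their direction and side of the threshold with the floor at the 99th percentile. Each member has 1 probe set, so the mean of all probe sets of a gene could move only the adjusted p-values, through the other genes. The replicate block moved 1 of 54, the knockout effect minus the LPS effect of Ms4a6d, to an adjusted p of 0.0484 from limma with that block, and changed no other call; the cause was not tested. Members whose knockout and LPS effects differ numbered 2 in the main setting and 1 without the intensity trend, without a floor, with the groups of the comparison alone and with the B cell covariate, and 3 with arrays centred on their median (Ms4a6d, 0.50, adjusted p = 0.0236) and with the replicate block. Members lower after LPS numbered 1 in place of 2 when arrays were quantile-normalised again. With the B cell covariate, members lower in the knockout numbered 0 in place of 1 (Ms4a4a, -0.66, adjusted p = 0.205), members differing between BG and LPS 2 in place of 4, and Ms4a7 in the knockout reversed to -0.01 (adjusted p = 0.988). Uninjected wild type in place of PBS was an alternative chosen after seeing the data. With it 2 members were higher (6.39% of all genes were) and 1 lower (2.78%) after LPS. After PGN 1 was higher (20.9%) and 1 lower (9.14%), and after IMQ 2 were higher (22%) and 1 lower (11%). After BG Ms4a4a, Ms4a6c and Ms4a6d were called lower (16.2% of all genes were) and the other members were not called. Ms4a7 reversed to 0.42 after LPS, 0.32 after PGN, 0.11 after IMQ and 0.23 after BG. The cause of these changes was not tested, apart from Ms4a7 against wild type, whose PBS arrays exceed all others. With each array left out in turn, members called ranged from 2 to 3 higher in the knockout, 0 to 1 higher and 0 to 2 lower after LPS, 1 to 2 lower after PGN, 3 to 4 lower after BG, 1 to 2 higher in PBS against WT, 3 to 4 between BG and LPS, 1 to 3 for the knockout effect minus the LPS effect and 3 to 4 for the knockout effect minus the BG effect; the other counts did not move. All 6 members were above the floor of 6.32 on all arrays. Ms4a4a in BG (mean 6.74) and in KO (7.05) and Ms4a6b in WT (6.90) lie close to it.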
